A study of Mus musculus with 58 samples.

Results

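The comparison described here set mouse embryonic stem cells depleted of the RNA exosome subunit RRP40 against cells given a control siRNA, and read the RNA yield of a library of short inserts in both. Of 58 samples in the series, 12 belonged to it: total RNA and genomic DNA (gDNA) of 3 siRRP40 replicates and of 3 siNT replicates, each set lettered A to C. Of 16461 inserts in the library, 9812 had at least 50 reads in all 6 gDNA libraries and were tested. Among these, 1328 had at least 1 spliced reference, a version of the insert with an internal segment removed, and 8484 had none.

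All 12 libraries came from F121-9 cells, a hybrid mouse embryonic stem cell line in which the parental alleles can be told apart. On the 129 allele, the cells carried the reporter mKate2, a red fluorescent protein, at the upstream antisense start site of Pou5f1 and a TagBFP2 tag at the end of the Pou5f1 protein, Oct4. Both groups were transfected 48 h before harvest, at 40 nM, siRRP40 with a pool of siRNAs against Exosc3 (RRP40) and siNT with a non-targeting siRNA. Inserts of 175 nt sat 157 nt from the antisense start site, ahead of mKate2, and RNA was reverse transcribed from a primer in mKate2, 221 nt beyond the inserts. The protein-coding gene Pou5f1 spans positions 35506032 to 35510777 of chromosome 17 in GRCm38. Whether the letters mark separate transfections is not given in the labels, so tests here measure the spread between these samples only. Untreated cells of the same line with the same library were used to sort inserts into classes, which kept the sorting apart from the 12 libraries compared.

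The RNA exosome is a protein complex that degrades RNA from its 3′ end. RRP40, encoded by Exosc3 in mammals, is one of the cap subunits of its core and binds RNA but does not cut it. RNAs that start upstream and antisense of active promoters are short-lived, and in mammalian cells their best known route of decay runs through the nuclear exosome. Splicing and polyadenylation sites along such an RNA are known to influence whether it ends early. An insert placed behind an antisense start site is read in a reporter transcript that starts where such an RNA starts. Only RNA that reached the primer site 221 nt beyond the inserts was read, and whether the exosome removes that RNA was not tested.

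The libraries hold amplicons of inserts, so Exosc3 RNA was not measured and the depletion itself was not checked here. Inserts are numbered in the files and not paired with genes or sequences, so they are described by class and no insert sequence is shown. Every level is log2 RNA per gDNA relative to the median insert of the same replicate, so a rise or fall shared by all inserts is not visible in it. RNA libraries held 44924502 to 69283018 reads on references and gDNA libraries 4269810 to 6398304. The gDNA libraries were deeper in siRRP40 (5019084 to 6398304 reads) than in siNT (4269810 to 4969242), without overlap. Among RNA libraries, siNT C was the shallowest and siNT A and B were the deepest. Reads that matched no reference made up 46.2% to 46.7% of siNT RNA libraries and 47.8% to 48.1% of siRRP40 RNA libraries, again without overlap, and what part depth or these reads have in the results below was not tested.

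Spliced RNA took a smaller share of the reads in all 3 siRRP40 libraries. Reads on spliced references made up 21.7%, 24.3% and 25.9% of all reads on references in siNT A, B and C. In siRRP40 A, B and C they made up 19.6%, 19.7% and 20.1%. The mean was 24.0% ± 2.12 (SD, n = 3) against 19.8% ± 0.232 (SD, n = 3), a difference of -4.17 percentage points. The siNT values spread over several points, the siRRP40 values lay close together, and the groups did not overlap. The exact two-sided permutation test gave p = 0.10, the smallest that 3 against 3 allow, and 0.164 after adjustment over 18 library measures. Without the 100 inserts with most spliced reads, a check added after seeing the data, the shares were 13.6%, 15.6% and 16.5% against 12.3%, 12.4% and 12.5%. The lower spliced share was therefore also present outside the most abundant spliced RNAs. In untreated total RNA libraries 1 to 4, reads on spliced references made up 19.1%, 8.31%, 9.97% and 22.4%. The siRRP40 values and siNT A lay within this range, and siNT B and C lay above it.

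Inserts that were almost fully spliced in untreated cells had lower RNA levels in siRRP40. Of the tested inserts, 250 had a spliced share of at least 90% in untreated total RNA. Their median level was 3.17, 3.33 and 3.37 (log2) above the median insert in siNT A, B and C. In siRRP40 A, B and C it was 2.87, 2.97 and 2.84. All siRRP40 values lay below all siNT values, and the difference of the means was -0.40 on the log2 scale, or 1.32-fold lower. Of the 5 classes of spliced share, this one had the highest median level in both groups.

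By the definition of this class nearly all of its untreated RNA was spliced, so its spliced reads had to follow its level over all reads. Counted from spliced reads alone, the median level of these 250 inserts was 3.14, 3.30 and 3.33 in siNT and 2.85, 2.85 and 2.78 in siRRP40. This is 1.35-fold lower, with no overlap. Counted from unspliced reads alone, the same inserts lay at -2.93, -2.82 and -2.87 in siNT and at -2.76, -2.78 and -2.95 in siRRP40. There the groups overlapped and the means differed by 0.04. Unspliced reads are a small part of this RNA. Their fitted change ran from -1.32 at the 5th percentile to 1.68 at the 95th, so they cannot show in which form the difference lay.

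Over all reads, the groups also stood apart for inserts spliced at 50 to 90% in untreated cells and overlapped in the classes below. The 230 inserts of this class had median levels of 1.53, 1.71 and 1.65 in siNT and 1.30, 1.34 and 1.32 in siRRP40, a difference of -0.31 without overlap. From spliced reads alone the same inserts differed by -0.38, again without overlap. Inserts spliced at 10 to 50% (315 inserts) differed by -0.39 in spliced reads, from -1.74, -1.29 and -1.49 in siNT to -2.07, -1.78 and -1.85 in siRRP40. Their level over all reads differed by 0.02, with overlap, and by the definition of this class most of its untreated RNA was unspliced. Inserts spliced at 1 to 10% (270 inserts) and under 1% (262 inserts) differed by 0.01 and by -0.08 over all reads, with overlap in both. Spliced reads thus differed by -0.38 to -0.43 in the 3 classes spliced at 10% or more, and unspliced reads by 0.03 to 0.04, with overlap. No trend over the classes was tested.

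Not every heavily spliced insert was lower. Over the inserts spliced at 90% or more, 82.4% had a fitted change below 0, where 50.4% of all tested inserts did. The fitted change ran from -1.28 at the 5th percentile to 0.34 at the 95th, with a median of -0.44. A fitted level more than 2-fold lower was found for 31 of the 250 (12.4%) and more than 2-fold higher for 0. Over all 9812 tested inserts, 454 (4.63%) were more than 2-fold lower and 628 (6.40%) more than 2-fold higher. For inserts spliced at 50 to 90%, 73.9% had a fitted change below 0, with a median of -0.27. Among inserts with no spliced reference the median was 0.02, and 48.3% lay below 0.

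Groups that did not overlap were counted insert by insert. Over all 9812 tested inserts, all 3 siRRP40 levels lay below all 3 siNT levels in 691 (7.04%) and above them in 726 (7.40%). Of the 250 inserts spliced at 90% or more, 57 (22.8%) lay below and 1 (0.40%) above. Of the 230 spliced at 50 to 90%, 41 (17.8%) lay below and 7 (3.04%) above. The classes spliced at under 50% stood near the background, with 6.11% to 7.04% below and 5.73% to 7.62% above.

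The length of the segment that splicing removed was read from the spliced references of inserts with 1 spliced form. Where it was 70 nt to under 95 nt (370 inserts), the median level over all reads was 1.04, 1.15 and 1.22 in siNT and 0.92, 1.01 and 0.97 in siRRP40. Where it was 95 nt to under 120 nt (333 inserts), the values were 1.07, 1.18 and 1.22 against 0.99, 0.91 and 1.01. At 120 nt or more (302 inserts) they were 1.28, 1.40 and 1.49 against 1.22, 1.20 and 1.05. The differences were -0.17, -0.19 and -0.23, each without overlap. From spliced reads alone they were -0.28, -0.49 and -0.29, and the groups overlapped in all 3. From unspliced reads alone they were 0.10, -0.003 and 0.09, without overlap only in the first. That 0.10 became -0.03 with at least 200 gDNA reads required. Over all reads, the settings also mattered in the middle class. The -0.19 became -0.10 with at least 200 gDNA reads required and -0.28 with 1 gDNA read required. Under 70 nt (235 inserts) the difference was -0.10 and the groups overlapped. The median spliced share of the shortest class was 0% in every replicate, so these references were rarely used. Inserts with 2 or more spliced forms (88 inserts) differed by 0.06 over all reads, with overlap.

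The highest inserts were also the most spliced, so inserts were divided into bands of the untreated level, a division added after seeing the data. In the band of 2 to 3 above the median insert (log2), 117 inserts spliced at 50% or more lay at 2.82, 3.03 and 3.01 in siNT and at 2.48, 2.56 and 2.52 in siRRP40, a difference of -0.43. In the same band, 305 inserts with no spliced reference lay at 2.39, 2.46 and 2.41 in siNT and 2.26, 2.39 and 2.31 in siRRP40, a difference of -0.10. Neither set overlapped between groups, the latter by a narrow margin. In the band of 3 or more, 101 inserts spliced at 50% or more differed by -0.38 and 24 inserts with no spliced reference by -0.34, both without overlap. At 1 to 2 the differences were -0.25 (75 inserts) and -0.03 (1274 inserts), at 0 to 1 they were -0.33 (49 inserts) and -0.00 (2088 inserts), and the groups overlapped in all 4. Below the median insert, at -1 to 0, they were -0.28 (32 inserts) and 0.01 (1855 inserts), with overlap. Under -1, inserts spliced at 50% or more differed by 0.29 (14 inserts, with overlap) and those with no spliced reference by 0.23 (2282 inserts, without overlap). Heavily spliced inserts thus had the more negative values from -1 to 3, not under -1, and by little in the topmost band. In every band the heavily spliced set had the higher siNT mean, such as 2.95 against 2.42 at 2 to 3. Level and splicing were therefore not fully separated. Inserts spliced at under 10% differed by -0.16 at 0 to 1 (145 inserts) and by 0.24 under -1 (90 inserts), both without overlap. For these inserts the groups overlapped at -1 to 0, 1 to 2 and 2 to 3. For inserts spliced at 10 to 50% they overlapped in every band. Whether the sets differ from each other was not tested.

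At the other end of the range, inserts with little RNA in untreated cells had higher relative levels in siRRP40. Inserts with no spliced reference were divided into quintiles by RNA per gDNA in untreated total RNA. Quintile 1, the lowest (1566 inserts), had median levels of -2.53, -2.53 and -2.56 in siNT A, B and C. In siRRP40 A, B and C they were -2.18, -2.27 and -2.31. The groups did not overlap, and the difference of 0.29 is 1.22-fold. The replicate siNT C, with the fewest RNA reads, lay with siNT A and B, and with at least 200 gDNA reads required the difference was 0.25. Quintile 2 differed by 0.07, from -1.07, -1.10 and -1.11 to -1.05, -0.98 and -1.04, also without overlap. Quintiles 3, 4 and 5 differed by 0.01, -0.01 and -0.05. The groups overlapped in quintiles 4 and 5 but not in quintile 3, so they could lie apart at a difference as small as 0.01.

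Finer steps, added after seeing the data, placed most of this difference in the lowest decile. Its 783 inserts lay at -3.16, -3.20 and -3.11 in siNT and at -2.65, -2.75 and -2.87 in siRRP40, which is 1.32-fold higher. The next decile lay at -2.05, -2.03 and -2.11 against -1.79, -1.86 and -1.91, or 1.16-fold higher. The groups were apart in both deciles, and siRRP40 C lay nearest to siNT in both. Deciles 3 to 9 differed by -0.02 to 0.10 and overlapped. In the topmost decile the difference was -0.10, without overlap. The fitted change was above 0 for 68.3% of inserts in the lowest decile and for 40.0% in the topmost.

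Inserts that were low by other untreated measures were compared in the same way. In the quintile with the least total RNA relative to nascent run-on RNA, in which a label is added to RNA still being made, the median level differed by 0.20 among inserts with no spliced reference. In the quintile with the least total RNA relative to chromatin-bound RNA it differed by 0.13. In the quintile with the least run-on RNA per gDNA it differed by 0.16, and in the quintile with the least RNA at a second site, the long non-coding RNA gene 4930461G14Rik, by 0.17. The groups did not overlap in any of these 4 quintiles, of which the run-on level was added after seeing the data. The quintiles share inserts and, for the first 3, untreated libraries, so they are not independent of each other.

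Total and nascent levels were then crossed. Among inserts in quintile 1 of total RNA, those also in quintile 1 of run-on RNA (873 inserts) had median levels of -2.72, -2.75 and -2.80 in siNT and -2.38, -2.45 and -2.49 in siRRP40, a difference of 0.32. In quintiles 2 and 3 of run-on RNA (390 and 198 inserts) the differences were 0.26 and 0.30, without overlap. In quintiles 4 and 5 (72 and 33 inserts) they were 0.10 and 0.11, and the groups overlapped. Among inserts in quintile 3 of total RNA, the differences were between -0.02 and 0.05 at every nascent level. Outside quintile 1 of total RNA, the highest differences were 0.16 (86 inserts, total quintile 4 and run-on quintile 1) and 0.15 (121 inserts, total quintile 2 and run-on quintile 5), both without overlap. The inserts with a low total level thus stood higher in siRRP40 over quintiles 1 to 3 of nascent RNA.

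The range of levels over the library was narrower in siRRP40, mainly at its low end. The SD over the tested inserts of log2 RNA per gDNA was 2.06, 2.07 and 2.07 in siNT and 1.88, 1.92 and 1.94 in siRRP40. The 5th percentile lay at -3.91, -3.79 and -3.83 in siNT and at -3.35, -3.34 and -3.45 in siRRP40. The 95th percentile lay at 2.63, 2.70 and 2.70 against 2.54, 2.64 and 2.57, with overlap. The 100 inserts with most RNA took 13.1%, 13.8% and 14.8% of RNA reads in siNT and 11.99%, 12.08% and 12.5% in siRRP40. Reads on the 1110 inserts with no gDNA read in any of the 6 libraries, a measure of reads placed on inserts that the cells may not carry, made up 0.517%, 0.612% and 0.687% of RNA reads in siNT and 0.536%, 0.492% and 0.521% in siRRP40, with overlap.

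No single insert passed edgeR's test for a changed level. edgeR's quasi-likelihood test called 0 of 9812 inserts (0.00%) at a Benjamini-Hochberg adjusted p under 0.05, and the smallest adjusted p was 0.0508. At an unadjusted p under 0.05 it gave 833 inserts (8.49%), of which 403 were higher in siRRP40 (4.11%) and 430 lower (4.38%). Of the lower ones, 62 were among the 250 inserts spliced at 90% or more, and of the higher ones 2 were. DESeq2 on the same reads called 58 (0.591%, 32 higher and 26 lower), and limma called 0. With at least 200 gDNA reads required, edgeR called 10 of 4973 inserts (0.201%), 5 in each direction.

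Unspliced and spliced reads gave the same outcome when tested apart. For unspliced reads edgeR called 0 of 9812 (0.00%), with 796 (8.11%) at an unadjusted p under 0.05, 433 of them higher (4.41%) and 363 lower (3.70%). Unspliced levels lay apart between groups in 758 inserts upward (7.73%) and 624 downward (6.36%). DESeq2 called 52 (0.530%), limma 0, and edgeR 4 of 4973 (0.0804%) with at least 200 gDNA reads. For spliced reads, 992 inserts had enough reads, and edgeR called 0 (0.00%). Here 92 (9.27%) had an unadjusted p under 0.05, 21 higher (2.12%) and 71 lower (7.16%), and the median fitted change was -0.35. All 3 siRRP40 levels of spliced reads lay below all 3 siNT levels in 138 inserts (13.9%) and above them in 34 (3.43%). DESeq2 called 23 (2.32%, 6 higher and 17 lower) and limma 0. This median rests on scaling spliced reads by the whole library. Scaled to themselves, they had a median change of 0.01, since that scaling sets the typical spliced insert to no change. Scaled by plain library totals the median was -0.22, and under the same totals the median of all tested inserts moved to 0.12.

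The spliced share of an insert needs no gDNA and was tested on 2097 inserts with at least 20 reads in each RNA library. edgeR called 0 (0.00%). At an unadjusted p under 0.05 there were 117 (5.58%), with 27 shares higher in siRRP40 (1.29%) and 90 lower (4.29%). DESeq2 called 29 (1.38%, 9 higher and 20 lower) and limma 0. All 3 siRRP40 shares lay below all 3 siNT shares in 178 inserts (8.49%) and above them in 53 (2.53%). The fitted change in the odds of splicing was below 0 for 1389 inserts and above 0 for 708, with a median of -0.32 on the log2 scale. The median was -0.10 in DESeq2 and -0.24 in limma. The inserts below 0 include 222 with a removed segment under 70 nt, whose median share was 0% in every replicate. Over all 2097 inserts the median share was 46.9%, 51.1% and 52.9% in siNT and 43.5%, 47.1% and 44.1% in siRRP40, with overlap.

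Median shares differed by several percentage points for inserts spliced at 10 to 90% and by less at the top of the scale. Inserts spliced at 50 to 90% in untreated cells (410 inserts) had a median share of 82.0%, 85.0% and 85.1% in siNT and 79.1%, 81.3% and 78.9% in siRRP40, without overlap. Inserts spliced at 90% or more (555 inserts) had 99.1%, 99.1% and 99.3% against 98.8%, 98.7% and 98.8%, also without overlap. Inserts spliced at 10 to 50% (457 inserts) had 28.2%, 32.0% and 33.1% against 24.5%, 28.9% and 25.2%. In that class siRRP40 B lay above siNT A, so the groups overlapped. Spliced inserts with 2 or more forms (127 inserts) had 43.5%, 49.0% and 50.9% against 39.8%, 37.2% and 44.7%, which overlapped by siRRP40 C. The median fitted change in the odds was -0.33, -0.33 and -0.40 in the 3 classes spliced at 10% or more. It was -0.14 for inserts spliced at 1 to 10% (348 inserts) and -0.29 for those spliced at under 1% (325 inserts). The latter had a median share of 0% in every replicate, so the odds fitted for them rest on hardly any spliced reads. A negative median change in the odds was thus not particular to the classes spliced at 10% or more.

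The authors' deposited table of RNA per gDNA ratios and spliced fractions held lower siRRP40 averages for these classes. Its replicate values come from the same counts, so they are not separate evidence. In the authors' deposited table the median siNT average ratio of the inserts spliced at 90% or more was 14.7 and the median siRRP40 average was 10.3. For inserts spliced at 50 to 90% these medians in the authors' deposited table were 4.66 and 3.26, and for all tested inserts 1.46 and 1.37. These are the authors' means over replicates on their own scaling.

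Since no insert passed the threshold, those named next fall outside the naming rule. They were chosen after their values were seen, as the 2 in each direction with the smallest unadjusted p among inserts with groups that did not overlap and on average 200 or more gDNA reads. The closest to the threshold was sequence_12853, spliced at 98.7% in untreated cells with a removed segment of 105 nt. Its level was 5.13, 4.65 and 3.89 in siNT and 2.15, 2.40 and 2.82 in siRRP40. The fitted change was -2.15 ± 0.34 (SE), with an adjusted p of 0.0508 in edgeR and 1.98e-05 in DESeq2. The edgeR value was 0.0228 without siNT C, 0.0422 without siRRP40 C and 0.0396 with read pairs in place of reads, and up to 0.601 under the other settings. Its gDNA reads numbered 80, 128 and 144 in siNT and 338, 542 and 238 in siRRP40, while its RNA reads numbered 25282, 25310 and 10674 against 7996, 16558 and 7892. The lower ratio thus came with more gDNA reads in every siRRP40 library, and from RNA libraries alone the change was -0.71.

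The other insert in this direction, sequence_13683, had no spliced reference. Its level was 5.54, 6.65 and 6.94 in siNT and 3.64, 5.30 and 4.40 in siRRP40, with a fitted change of -1.99 ± 0.37 (SE) and an adjusted p of 0.0751 in edgeR. DESeq2 gave an adjusted p of 0.117 for it. The edgeR value was 0.0129 without siNT A and 0.0185 without siRRP40 B. It was up to 0.320 when another replicate was left out (siRRP40 A), and 0.706 without the block that ties RNA to its gDNA. Both lower inserts were among the high-yielding ones in siNT, although sequence_13683 stood at 0.32 in untreated cells.

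In the other direction, sequence_00087, with no spliced reference, had levels of 0.81, 0.97 and 0.42 in siNT and 2.89, 2.58 and 2.58 in siRRP40. The fitted change was 1.93 ± 0.36 (SE), with an adjusted p of 0.0751 in edgeR and 0.000227 in DESeq2. Its gDNA reads numbered 378, 260 and 430 in siNT and 258, 118 and 152 in siRRP40, without overlap, and from RNA libraries alone the change was 0.72. Its level in untreated cells was 1.44, between the groups. The weakly expressed sequence_08201 had 12, 2 and 2 RNA reads in siNT and 66, 188 and 62 in siRRP40, on 218 to 496 gDNA reads. Its fitted change of 4.31 ± 0.81 (SE) had an adjusted p of 0.0751 in edgeR, or 0.0360 when at least 200 gDNA reads were required, and 0.000227 in DESeq2. Its level was -3.69 in untreated cells, close to the siRRP40 mean of -4.33 and far from the siNT mean of -8.24, so siNT was the group that stood apart. With so few siNT reads, all even in number as mates were counted together, the size of that change is poorly bounded.

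For the spliced share, a higher value was seen for sequence_05188, with a removed segment of 70 nt. Its share was 18.7%, 25.04% and 29.2% in siNT and 53.4%, 56.2% and 51.4% in siRRP40. The fitted change in the odds was 1.87 ± 0.33 (SE, log2), with an adjusted p of 0.345 in edgeR and 0.00220 in DESeq2. In untreated cells its share was 0.255%, far from both groups. The second insert with a higher share, sequence_13472, went from 0.0870%, 0.173% and 0.229% to 2.12%, 2.90% and 1.20%. Its siNT shares rest on 12, 16 and 8 spliced reads, and its share in untreated cells was 0.0289%. The adjusted p was 0.345 in edgeR and 5.16e-05 in DESeq2.

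A lower share was seen for sequence_12012, at 12.4%, 10.1% and 6.93% in siNT and 0.323%, 0.632% and 0.170% in siRRP40. The siRRP40 values rest on 4, 8 and 2 spliced reads of 1240, 1266 and 1176. Its fitted change was -4.90 ± 0.83 (SE, log2 odds), with an adjusted p of 0.345 in edgeR and 5.9e-06 in DESeq2. Its share in untreated cells was 3.37%, between the groups. The nearly fully spliced sequence_12690 had 99.8%, 99.9% and 99.7% against 98.9%, 98.7% and 99.1%. Its share in untreated cells was 98.0%, below both groups and nearer to siRRP40. The 4 inserts thus differed in direction and in starting share, with edgeR calling none of them.

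The gDNA shares show what the comparison gives where no RNA is read. edgeR called 0 of 9812 inserts (0.00%) between siRRP40 and siNT gDNA, with 553 (5.64%) at an unadjusted p under 0.05, 286 higher (2.91%) and 267 lower (2.72%). The gDNA shares of the groups lay apart in 579 inserts upward (5.90%) and 545 downward (5.55%). DESeq2 called 10 (0.102%). The share at an unadjusted p under 0.05 was thus 8.49% for the level over all reads and 5.64% for gDNA alone. The gDNA fit had no block for each siRNA and letter, so these shares are not on equal terms. Without that block, edgeR gave 388 of 9812 inserts for the level over all reads, fewer than the 553 for gDNA.

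The precision of single inserts limited these tests. The SE of the fitted change had a median of 0.45, or 0.74 where gDNA reads averaged 50 to 200 per library and 0.28 where they averaged over 1000. Across inserts, levels of 2 replicates of the same siRNA correlated at a Pearson r of 0.873 to 0.885 and of different siRNAs at 0.863 to 0.874. The change from siNT to siRRP40 of the same letter correlated across inserts between letters at 0.0687 to 0.0826, and at 0.190 to 0.252 for the 710 inserts with over 1000 gDNA reads. These values are across inserts of the same libraries and describe them only. In all, 89 class medians were compared, 30 of them without overlap, and none can go below p = 0.10 in the exact permutation test, or 0.297 after adjustment over the 89.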

How the data were processed

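RNA and gDNA of siNT and siRRP40 replicates A to C were compared per insert. The authors' deposited counts are whole reads on each reference, covering unspliced and spliced references in RNA and unspliced ones in gDNA, per the file headers and names. The submitters' processing notes name cutadapt 1.14 and Bowtie2 2.3.4.3. Every count was even (0 odd), as counting both mates gives. The deposited ratio values equalled RNA over gDNA counts up to 1 constant per library, and the deposited fraction of spliced reads equalled spliced over all counts, both within 0.001.

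Levels were tested with edgeR 4.0.16 in R 4.3.3 (TMM scaling, quasi-likelihood test) as the interaction of RNA against gDNA with the siRNA, with a block for each siRNA and letter. Inserts needed 50 or more reads in each gDNA library. Spliced reads were tested at 120 or more over the 6 RNA libraries and shares at 20 or more per RNA library. DESeq2 1.42.0 and limma 3.58.1 were alternatives. Class medians used a prior count of 2. Classes came from untreated libraries, with at least 80 total RNA reads for the spliced share and 20 reads per gDNA library for the level. Inserts to be named had to pass an adjusted p of 0.05 with groups apart and a mean of at least 200 gDNA reads, and 0 did. The tests were run on simulated counts, in which RNA and gDNA of a replicate had no shared deviation. For shares, the simulated spread was set by hand. The simulation therefore differed from the data, and its rates are not given here.

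RNA and gDNA of the same siRNA and letter deviated together (r of 0.302 to 0.362 across inserts, other letters -0.188 to -0.140). Deviations were taken from the mean of the 3 replicates, so the negative values of other letters follow by construction and are no separate contrast. RNA of the same letter across siRNAs did not deviate together (-0.0106 to 0.0202), so letters were not used as pairs. The members, classes and tests were chosen with earlier results of these data known.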

Additional observations from a re-analysis of the deposited data

How the results depend on the processing

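Counts of called inserts moved from 0 under some settings. DESeq2 called 58 for all reads, 52 for unspliced reads, 23 for spliced reads, 29 for shares and 10 for gDNA. RNA libraries without gDNA gave 4, 4 and 1 for all, unspliced and spliced reads. At least 200 gDNA reads gave 10 and 4 for all and unspliced reads. Read pairs in place of reads gave 1 for each of these, and plain library totals gave 1 for unspliced reads. Without the block that ties RNA to its gDNA, spliced reads gave 2. The replicate block over the letters gave 5 for all reads and 2 for unspliced reads. With it, sequence_12853 had an adjusted p of 0.0228 in edgeR and sequence_13683 one of 0.00135, both called for all reads. It changed no count of called inserts for spliced reads, shares or gDNA. Leaving out 1 replicate gave 0 to 2 for all reads and 0 to 1 for unspliced reads (2 without siNT A or siRRP40 C and 1 without siNT C or siRRP40 B for all reads, 1 without siNT A, siRRP40 B or siRRP40 C for unspliced reads), and 0 for the other 3. The difference for inserts spliced at 50 to 90% was -0.21 with only 1 gDNA read required, against -0.31. The differences for inserts spliced at 90% or more and for the lowest quintile without spliced references ranged over -0.46 to -0.36 and 0.25 to 0.32 under the 11 alternatives. Their sign could change only with another prior count or gDNA minimum, and there it did not. With groups apart, leaving out 1 replicate cannot turn the sign, and the block over the letters returns the main value by construction. Leaving out siNT or siRRP40 replicates did not move any of these 3 class differences by over 1.5 times. Class differences are relative to the median insert and so are untouched by the shift of that median under plain totals. The causes were not tested. Depth and 3 replicates limit single inserts, whose SE had a median of 0.45. Mates and PCR copies are not independent molecules.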
